A study of Caenorhabditis elegans with 2 samples.

Results

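The optimal peaks of UNC-86 that were not strong in both replicates numbered 473, which is 15.8% of the optimal list (95% interval 14.5 to 17.2). They were selected on the signal values of the replicates. Each replicate had its own relaxed list of peaks, and a peak of the optimal list was kept here when no strong peak of replicate 1, or none of replicate 2, overlapped it by at least 1 bp. The strong peaks of a replicate are those of highest signal, taken from its list to the same number as the optimal list holds, and the rank of the last one is called the limit below. Such a peak is called missed by that replicate below, and the 2514 other optimal peaks (84.2%) are called covered. The missed peaks comprised 273 missed by replicate 1 only, 184 missed by replicate 2 only and 16 missed by both.

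Binding was mapped by chromatin immunoprecipitation and sequencing (ChIP-seq) in whole Caenorhabditis elegans hermaphrodites of 1 group, in 2 biological replicates. The animals were L1 larvae of strain OP476, genotype unc-119(tm4063) III; wgIs476, taken 6 hours after synchronization by starvation of L1 larvae after bleaching. Both replicates carried the unc-119 allele and the wgIs476 insertion, from which UNC-86 is made with a GFP tag at its C terminus, so the lists reflect a tagged protein from a transgene in addition to any untagged copy. The tag is eGFP in one label and GFP-FLAG in another. Both unc-86 and GFP are named as what the antibody recognizes, and the immunoprecipitation was taken as done through GFP. The labels name no untagged or other condition, and the control that they name was not analysed here. Coordinates are on the ce11 build. The files are peak lists and hold no reads, and the read depth behind them is unknown.

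UNC-86 is a POU homeodomain transcription factor that gives several classes of C. elegans neurons their identity. It works with partner homeodomain proteins, and with MEC-3 it switches on the genes of the touch receptor neurons. In a whole animal its neurons are a small part of all cells. The irreproducible discovery rate (IDR) procedure keeps peaks by how well their order repeats between replicates, and an optimal list is the fullest of the lists that it gives.

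Sequences at the summits of missed peaks show what kind of DNA lay under them. Stretches reaching 75 bp to each side of a summit were read from the plus strand of the RefSeq assembly WBcel235 and searched on both strands for AATGCAT, an element that UNC-86 binds with MEC-3, for its core ATGCAT, which lies inside it, and for ATGCAAAT, the octamer of POU proteins. TAATTA, a homeodomain core, CACGTG, an E box, and GAGAGA, a repeat, were searched as well, with AATGCAT and ATGCAAAT read backwards, TACGTAA and TAAACGTA, as controls. AATGCAT stood in 16 missed windows and ATGCAAAT in 12. Shown here are 6 of the missed peaks of high pooled signal with either of these, with the matches to AATGCAT or ATGCAAAT on either strand in capitals and the gene with the nearest 5′ end as the name. nucb-1 encodes a nucleobindin, ptp-3 a receptor tyrosine phosphatase of axons and synapses, npr-15 a neuropeptide receptor-like protein and fkh-7 a forkhead transcription factor.
nucb-1, chrX:10197402-10197552: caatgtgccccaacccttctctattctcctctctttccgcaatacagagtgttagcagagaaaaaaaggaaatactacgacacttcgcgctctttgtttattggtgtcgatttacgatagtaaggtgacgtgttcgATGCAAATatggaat
ptp-3, chrII:10970809-10970959: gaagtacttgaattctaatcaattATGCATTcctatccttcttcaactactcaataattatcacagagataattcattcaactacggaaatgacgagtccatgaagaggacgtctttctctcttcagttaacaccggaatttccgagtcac
npr-15, chrIII:3688613-3688763: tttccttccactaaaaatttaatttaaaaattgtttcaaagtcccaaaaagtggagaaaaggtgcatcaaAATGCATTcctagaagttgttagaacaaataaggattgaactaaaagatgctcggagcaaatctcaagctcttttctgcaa
Y71H2B.8, chrIII:2578726-2578876: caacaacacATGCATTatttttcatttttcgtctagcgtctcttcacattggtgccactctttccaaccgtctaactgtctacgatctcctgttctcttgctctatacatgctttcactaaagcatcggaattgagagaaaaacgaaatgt
fkh-7, chrIV:5607448-5607598: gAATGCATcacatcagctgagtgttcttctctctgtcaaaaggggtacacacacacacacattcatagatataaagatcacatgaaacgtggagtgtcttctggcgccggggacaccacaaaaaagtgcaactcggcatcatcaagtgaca
C04G6.2, chrII:5092445-5092595: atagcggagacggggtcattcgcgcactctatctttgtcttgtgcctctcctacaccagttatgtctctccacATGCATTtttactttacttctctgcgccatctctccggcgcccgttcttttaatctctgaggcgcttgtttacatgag

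Of these 6 peaks, nucb-1, ptp-3, Y71H2B.8 and C04G6.2 were missed by replicate 1 only, and npr-15 and fkh-7 by replicate 2 only. The 2 matches at npr-15 are 1 palindrome read on both strands. The match stood near the end of the window at nucb-1, Y71H2B.8 and fkh-7, and near its middle, where the summit lies, at npr-15 and C04G6.2. In the pooled list the signal was 94.6 at nucb-1, 93.9 at ptp-3 and 84.6 at npr-15.

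A second set shows the repeats, which were far more common than the elements above. GAGAGA or its reverse complement TCTCTC is in capitals, and the peaks are among those with the most matches, chosen from the peaks missed by replicate 1 only (kin-20 and K02E2.11) and from those missed by replicate 2 only (Y53G8AM.8 and din-1). kin-20 encodes a casein kinase 1 and din-1 a corepressor that binds the nuclear receptor DAF-12.
kin-20, chrX:15276836-15276986: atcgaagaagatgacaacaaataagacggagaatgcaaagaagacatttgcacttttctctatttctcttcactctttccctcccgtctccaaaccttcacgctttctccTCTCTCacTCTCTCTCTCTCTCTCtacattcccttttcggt
K02E2.11, chrV:20383187-20383337: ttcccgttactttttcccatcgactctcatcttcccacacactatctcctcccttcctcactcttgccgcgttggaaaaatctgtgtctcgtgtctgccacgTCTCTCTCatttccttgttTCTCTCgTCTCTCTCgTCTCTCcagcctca
Y53G8AM.8, chrIII:3271849-3271999: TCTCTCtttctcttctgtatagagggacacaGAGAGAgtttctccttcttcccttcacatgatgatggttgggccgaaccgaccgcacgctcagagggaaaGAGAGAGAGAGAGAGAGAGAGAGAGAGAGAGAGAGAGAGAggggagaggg
din-1, chrII:11635846-11635996: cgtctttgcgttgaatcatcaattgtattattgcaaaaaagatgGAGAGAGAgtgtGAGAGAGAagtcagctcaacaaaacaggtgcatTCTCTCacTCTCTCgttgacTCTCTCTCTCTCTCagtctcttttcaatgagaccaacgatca

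The Y53G8AM.8 window held 20 overlapping matches and the din-1 window 11, against 7 at kin-20 and 6 at K02E2.11. At kin-20 and K02E2.11 the repeats read TCTCTC on the plus strand and lay to the right of the summit. At Y53G8AM.8 most matches read GAGAGA in 1 long run, and at din-1 both readings occurred.

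GAGAGA stood in 155 of 473 missed windows (32.8%, 28.6 to 37.2), against 929 of 2514 covered windows (37.0%, 35.1 to 38.9) and 7.56% of 66408 windows of the same length spaced evenly along the genome. Intervals here and below are exact binomial 95% intervals, and they cover counting error over peaks or genes and nothing else. Regions are not replicates and many share a promoter, so no p-value was computed. The missed peaks were weak, and covered peaks of nearer signal are therefore set beside them, taken from the weakest of 4 equal bands of the pooled signal. That band held 439 missed and 308 covered peaks. Their median pooled signals were 72.9 and 81.5 there, so a gap in signal remained. Within the band GAGAGA stood at 31.7% of missed peaks (27.3 to 36.2) and 35.4% of covered peaks (30.1 to 41.01). In the lowest eighth of the signal the order turned, with 31.4% of missed and 29.6% of covered peaks.

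AATGCAT was rare at missed and covered peaks alike. It stood at 3.38% of missed peaks (1.95 to 5.44) and 2.98% of covered peaks (75 peaks, 2.35 to 3.73), against 2.27% of the genome windows. The core ATGCAT stood at 6.77% of missed peaks (4.67 to 9.42), 4.85% of covered peaks and 3.51% of genome windows. ATGCAAAT stood at 2.54% of missed peaks (1.32 to 4.39), 0.994% of covered peaks (0.645 to 1.46) and 1.31% of genome windows. In the weakest band AATGCAT stood at 3.42% of missed peaks (1.92 to 5.57) and 2.27% of covered peaks (0.919 to 4.63), and ATGCAT at 7.06% of missed peaks (4.85 to 9.87) and 3.90% of covered peaks (2.03 to 6.71). ATGCAAAT stood there at 11 missed peaks (2.51%, 1.26 to 4.44) and 4 covered peaks (1.30%, 0.355 to 3.29). The intervals overlap for each of these sequences, which does not show that the shares are alike. For ATGCAAAT over all missed and all covered peaks they meet only between 1.32 and 1.46%. These differences were not tested.

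TAATTA, the homeodomain core, stood at 4.23% of missed and 4.57% of covered peaks, both below the 7.02% of genome windows. CACGTG stood at 4.02% of missed and 4.65% of covered peaks, against 2.51% of genome windows. In the weakest band TAATTA stood at 3.64% of missed and 4.22% of covered peaks, and CACGTG at 4.33% of missed and 3.90% of covered peaks. The backwards control TACGTAA stood at 3 missed peaks (0.634%), at 0.398% of covered peaks and in 0.667% of genome windows. TAAACGTA stood at 1 missed peak (0.211%), at 0.119% of covered peaks and in 0.303% of genome windows. Both controls are rarer in the genome windows than AATGCAT and ATGCAAAT, so their counts are not set against the counts of those elements. Median G and C content was 43.0% at missed peaks and 45.7% at covered peaks, against 35.1% in the genome windows. In the weakest band it was 43.0% in missed and in covered peaks alike, without the gap seen against the covered peaks as a whole.

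The missed peaks were weak peaks of the pooled list, which was made from both replicates together. The signal is the authors' own value, no source used here gives its scale, and it ranks peaks within 1 list. Signals of both replicates are given side by side below, and their sizes are not compared between lists. The optimal peaks were, without exception, the highest of the pooled list. Pooled signals of the missed peaks ran from 66.4 to 118 with a median of 73.7, against 66.5 to 1708 with a median of 145 at covered peaks. The strongest missed peak ranked 1632 in the pooled list. In the lowest eighth of the signal 293 of 374 peaks were missed (78.3%, 73.8 to 82.4), in the second eighth 146 of 373 (39.1%), in the third 26 of 373 (6.97%) and in the fourth 8 of 374 (2.14%). None of the stronger 4 eighths held a missed peak. Since the members were chosen on the replicate signals that the pooled signal combines, this gradient describes the choice and is no result about UNC-86.

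**Figure D1:**
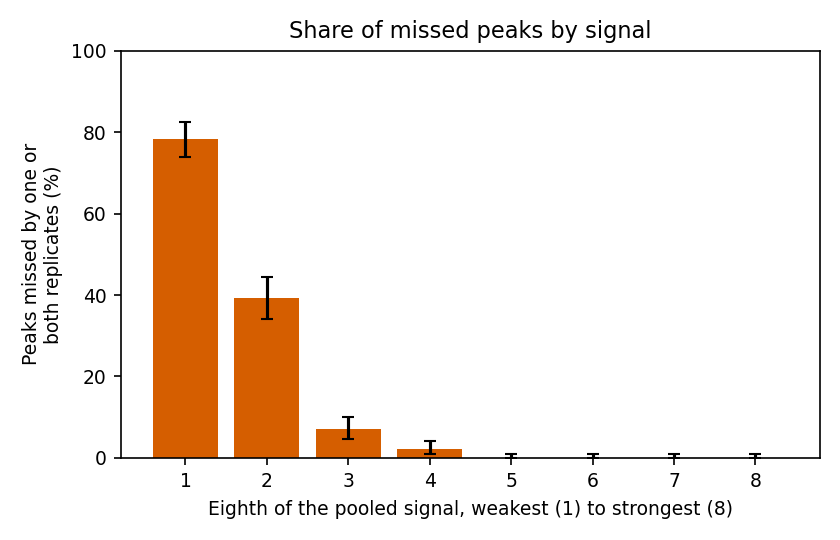
Share of optimal peaks missed by one or both replicates (vertical axis, percent) in each eighth of the pooled signal (horizontal axis, weakest to strongest). Error bars are exact 95% intervals over peaks; the share was 78.3% in the weakest eighth and 0 in the 4 strongest.

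Every missed peak was overlapped by some peak of the relaxed list of the replicate that missed it. The relaxed lists were deposited as peaks and background together, so such an overlap does not by itself show binding in that replicate. Each of the 289 peaks missed by replicate 1 was overlapped by a weaker peak of its relaxed list of 29587 peaks, and each of the 200 missed by replicate 2 by one of its 25172. The best rank of the overlapping peak in replicate 1 ran from 2991 to 15931 with a median of 3502, and in replicate 2 from 2988 to 10515 with a median of 3339. By rank 5000, 254 of the 289 (87.9%) and 192 of the 200 (96.0%) were met. Beyond rank 10000 lay 5 peaks in replicate 1 and 1 in replicate 2. The lists differ in length, so the ranks place peaks within a replicate and show no change in binding between them.

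At most missed peaks the summits also lay close together. The median distance from the summit of a missed peak to the summit of the overlapping replicate peak was 14 bp in replicate 1 and 10 bp in replicate 2. The largest distances were 255 bp and 159 bp. In the weakest band the median was 15 bp for missed and 19 bp for covered peaks in replicate 1, and 10 bp for missed and 14 bp for covered peaks in replicate 2. The distance is to the best-ranked overlapping peak, which at a covered peak can belong to a strong neighbour. In that band 47 covered peaks had no strong summit within 100 bp in one or both replicates, so the medians do not compare how well summits repeat. At peaks missed by replicate 1 only, the authors' −log10 q value of the overlapping peak fell between 0.120 and 2.23 in replicate 1. Its lower quartile there was 1.26, so part of these overlaps were weakly called. In replicate 2 the value was 3.80 at all of these peaks. At peaks missed by replicate 2 only it ran from 0.338 to 3.80 in replicate 2, with a median of 3.12. These q values come with the same peaks as the signal and are not independent of it. In replicate 2 all covered peaks had 3.80 as well, the highest value at any optimal peak, so it does not order peaks there. In replicate 1 the highest was 3.51, and the values are not compared between replicates.

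**Figure D2:**
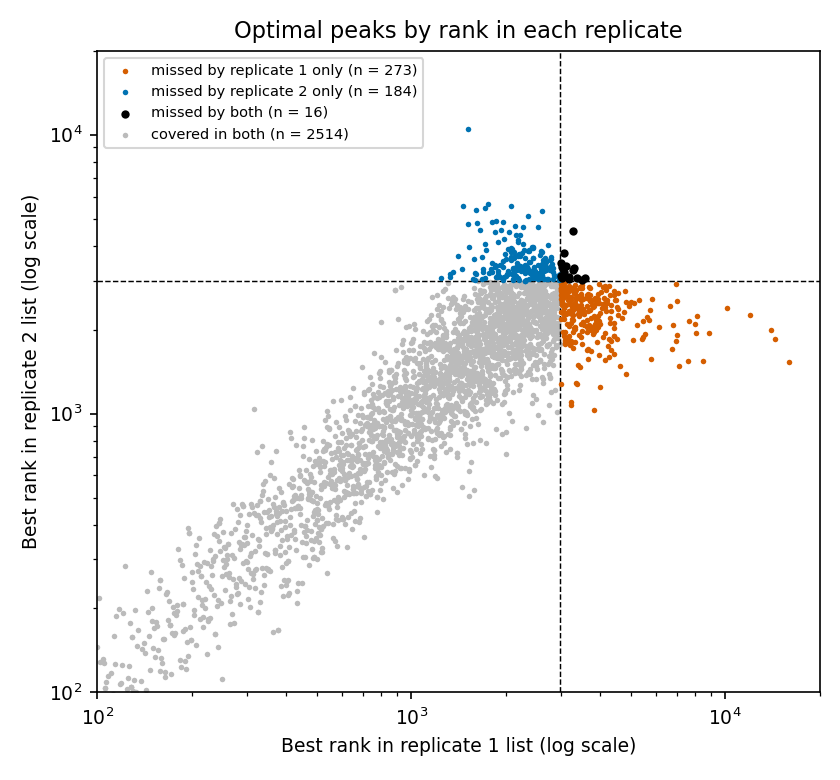
Best rank of the overlapping peak in the list of replicate 1 (horizontal axis) and of replicate 2 (vertical axis), both on log scales from rank 100, for optimal peaks missed by replicate 1 only, by replicate 2 only, by both, and covered in both. Dashed lines mark the limit in each replicate; most missed peaks lie close outside a line, and the farthest reach 15931 in replicate 1 and 10515 in replicate 2.

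Values on either side of the limit were close. In replicate 1 the peak that egl-2, a potassium channel gene, is nearest to was the last inside, with a signal of 30.47, and the peak nearest to npr-13 was outside at rank 2991 with 30.43. The next outside, near D2005.4 and C15C7.4, also had 30.43 at ranks 2992 and 2993. In replicate 2 the peak near Y47H9C.12 was inside at rank 2985 with 37.84, the peak near glb-18 outside at rank 2988 with 37.82, and the peak at lin-14 outside at rank 2996 with 37.76. The peaks next inside, near marc-5 and pix-1 in replicate 1 and near dhs-8 and cmtr-2 in replicate 2, had ranks of 2981, 2977, 2984 and 2983. Of these inside peaks, pix-1 was missed by replicate 2 and cmtr-2 by replicate 1.

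Most missed peaks lay at promoters, a window that here begins 1500 bp before an annotated 5′ end, of a gene of any kind, and ends 500 bp after it. Promoters held 342 of the 473 missed summits (72.3%, 68.0 to 76.3), introns 58 (12.3%), intergenic DNA 63 (13.3%) and exons 10 (2.11%). Among all covered peaks the promoter share was 81.4% (79.8 to 82.9) and the intron share 7.20% (6.22 to 8.28). In the weakest band promoters held 72.2% of missed peaks (67.8 to 76.4) and 71.1% of covered peaks (65.7 to 76.1), introns 12.3% and 13.6%, and intergenic DNA 13.2% and 14.6%. Promoters of protein-coding genes held 53.99% of missed and 53.9% of covered peaks there. The lower promoter share of the missed peaks was seen against the covered peaks as a whole and not against those of the same band. The lowest eighth, a setting chosen after seeing the data, had nearer median signals, 70.4 at missed and 72.8 at covered peaks. Promoters held 70.3% of missed (64.7 to 75.5) and 76.5% of covered peaks there (65.8 to 85.2), with overlapping intervals. A lower share at missed peaks thus returned in the eighth, and it was not tested.

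Within the weakest band, other positional measures had overlapping intervals or close medians. Summits between divergent protein-coding 5′ ends made up 31.4% of missed peaks (27.1 to 36.01) and 36.4% of covered peaks (31.0 to 42.01) of the weakest band. Over peaks of every signal they made up 32.3% of missed (28.1 to 36.8) and 41.4% of covered peaks (39.4 to 43.3), without overlap. The median distance to the nearest protein-coding 5′ end was 1067 bp at missed peaks and 921 bp at covered peaks of that band, against 464 bp at all covered peaks. Exons held 10 missed peaks (2.28%, 1.10 to 4.15) and 2 covered peaks (0.649%, 0.0787 to 2.33) in that band. By chromosome, the X held 22.3% of missed peaks (18.5 to 26.5) and 18.5% of covered peaks (14.3 to 23.3), and chromosome IV 11.8% (8.97 to 15.2) and 16.9% (12.9 to 21.5). Within the band each pair of intervals overlaps, which does not show that the shares are alike.

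**Figure D3:**
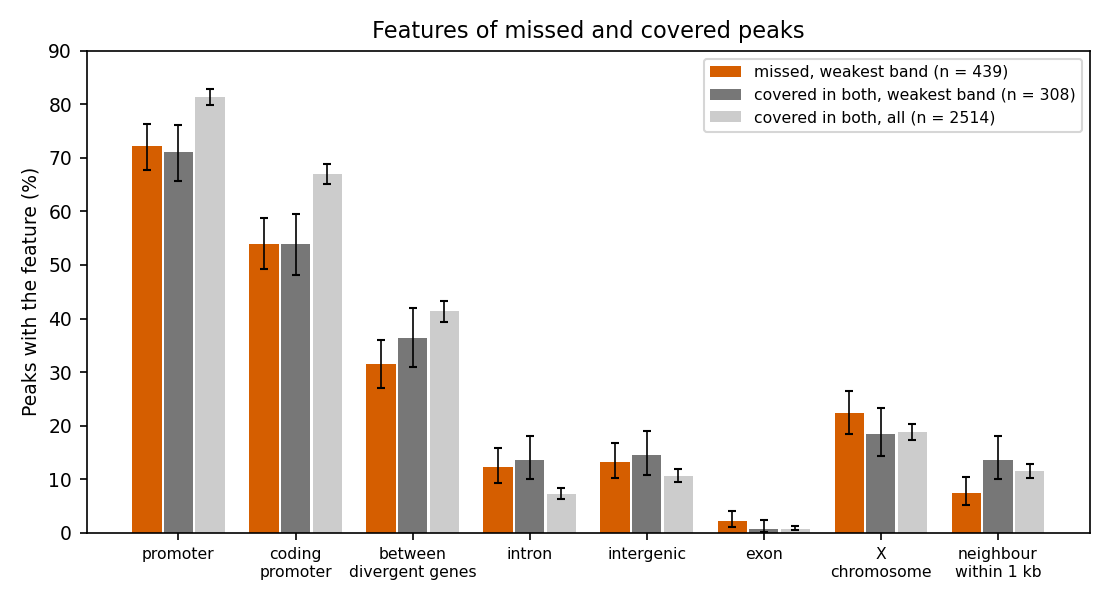
Share of peaks (vertical axis, percent) with each feature among missed peaks of the weakest band of the signal, covered peaks of that band and all covered peaks, with exact 95% intervals over peaks as error bars. Promoters held 72.2%, 71.1% and 81.4% in that order; the share with another optimal summit within 1 kb depends on the overlap rule.

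Missed peaks had fewer close neighbours under the overlap rule, and that share turned with the rule. Another optimal summit lay within 1000 bp of 33 missed peaks in the weakest band (7.52%, 5.23 to 10.4) and of 42 covered peaks (13.6%, 10.01 to 17.98). An overlap of 1 bp lets the replicate peak of a strong neighbour cover a weak optimal peak. When a replicate summit within 100 bp was required instead, a rule applied to this share after seeing the data, 90 more peaks counted as missed, of which 50 (55.6%) had a neighbour within 1000 bp. The share with a neighbour was then 14.7% over all missed peaks, against 9.82% over all covered peaks and 6.13% over covered peaks of the weakest band. The median distance to the nearest optimal summit was 6904 bp at missed peaks and 6872 bp at covered peaks of the weakest band.

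By gene, 2612 protein-coding genes had an optimal peak at the promoter. Of these, 313 (11.98%, 10.8 to 13.3) had missed peaks and no covered one, 31 had both kinds and 2268 had covered peaks alone. Among genes of small RNAs, missed peaks alone stood at 21 of 135 tRNA genes with a promoter peak (15.6%, 9.89 to 22.8), at 7 of 116 snoRNA genes (6.03%, 2.46 to 12.04), at 5 of 30 miRNA genes (16.7%, 5.64 to 34.7) and at 54 of 333 piRNA genes (16.22%, 12.4 to 20.6). Neighbouring genes share promoters and peaks, so these counts are not independent. A peak within a promoter window does not show which gene, if any, UNC-86 acts on.

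Gene lists of known function were read against the share of 11.98% over all protein-coding genes with a promoter peak. Over 25 lists, 32 genes had a missed peak at the promoter, from 30 distinct peaks with pooled signals of 68.8 to 106, and none of them had a covered one besides. Of these genes 23 were missed by replicate 1 only, 9 by replicate 2 only and none by both. Over all 473 missed peaks the split was 273, 184 and 16 in that order, so a lean to replicate 1 is not particular to the lists. Each list's own count is small and its interval wide.

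Neuronal genes came first. Of 14 touch receptor neuron genes, 5 had a promoter peak, and 1 of these was missed. It was mec-2, a stomatin-like protein of the channel complex that senses touch, on the X at 5575483 to 5575878. Its signal was 24.5 at rank 3887 in replicate 1 and 45.4 at rank 2492 in replicate 2, and 72.8 in the pooled list. All 15 pan-neuronal genes with a promoter peak had covered peaks (0 of 15 missed, interval up to 21.8%), as did the 3 neuronal fate transcription factors, the 1 transmitter gene and the 6 neuropeptide genes.

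Of the 4 neuropeptide processing genes with a promoter peak, pgal-1 was missed. It encodes the lyase that completes the amidation of neuropeptides, and its peak on chromosome I at 4906577 to 4906972 ranked 5815 in replicate 1 (signal 18.9) and 1563 in replicate 2 (signal 68.3). Among the lists its peak was one of the most uneven between the replicates. In the chemoreceptor family, a large family of receptors of sensory neurons, 3 of 15 genes with a peak were missed (20.0%, 4.33 to 48.1): srsy-2, srab-4 and srw-95. The srw-95 peak is the same as that of eif-1.A.

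Heterochronic genes, which set the timing of larval development, had 2 missed among 5 with a promoter peak (40.0%, 5.27 to 85.3). lin-14, a nuclear protein that holds L1 fates, had a peak on the X at 11465285 to 11465680, with a signal of 38.1 at rank 2311 in replicate 1 and 37.8 at rank 2996 in replicate 2. It lay just outside the limit of replicate 2, as given above. lin-46, a gephyrin-like protein of the same pathway, ranked 4049 in replicate 1 and 2398 in replicate 2, with a pooled signal of 70.2. The symbols let-7 and lin-4 were not matched in the annotation used here.

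Genes of protein synthesis and turnover were counted in the same way. Of 67 cytosolic ribosomal protein genes with a promoter peak, 6 were missed (8.96%, 3.36 to 18.5): rps-7, rpl-13, rps-9, rpl-19, rps-27 and rpl-37. rps-7 ranked 3644 in replicate 1 and 1704 in replicate 2, and rps-9 ranked 4226 and 1744 in that order. rps-27 and rpl-37 were missed by replicate 2, at ranks 3249 and 3427, and stood at ranks 2441 and 2607 in replicate 1. The other 4 were missed by replicate 1. Ribosomal protein genes thus lay on both sides of the limit, mostly in covered peaks. The same held for protein-coding genes with a promoter peak in general, whose missed share of 11.98% lies inside the interval.

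Of 22 mitochondrial ribosomal protein genes with a peak, 3 were missed (13.6%, 2.91 to 34.9): mrpl-47, mrps-25 and mrps-10. mrps-25 had a signal of 51.2 at rank 1652 in replicate 1 and 25.4 at rank 4567 in replicate 2. Proteasome genes had 4 missed of 18 (22.2%, 6.41 to 47.6). These were rpt-1, an ATPase of the regulatory particle, and pbs-7, pbs-2 and pbs-4, beta subunits of the core particle. rpt-1 had the highest pooled signal of the 4, 88.2, at rank 3279 in replicate 1 and 1713 in replicate 2.

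Translation factors had 4 missed of 24 (16.7%, 4.74 to 37.4): eif-6, eef-1B.2, eif-1.A and eif-2gamma. eif-6 shares its peak with pbs-2, between the genes on chromosome I at 12968451 to 12968846. eef-1B.2, an elongation factor subunit, ranked 5304 in replicate 1 and 2557 in replicate 2. None of 6 aminoacyl-tRNA synthetase genes and none of 11 chaperone genes with a peak was missed, where the intervals reach 45.9% and 28.5%. One of 15 splicing genes was missed, rsp-7, an SR protein, with ranks of 6745 in replicate 1 and 1711 in replicate 2.

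Families of chromatin proteins, transcription factors and F-box proteins followed, with intervals that all hold the share over all genes. hcp-3, the centromeric histone H3 variant, and hil-2, a linker histone, were the 2 missed of 21 histone genes (9.52%, 1.17 to 30.4). hcp-3 had the highest pooled signal of all missed list genes, 106, with a signal of 26.98 at rank 3445 in replicate 1 and 72.3 at rank 1464 in replicate 2. Nuclear hormone receptors had 2 missed of 17 (11.8%, 1.46 to 36.4), nhr-14 and nhr-280, and F-box genes had 2 of 7 (28.6%, 3.67 to 70.96), fbxa-167 and fbxa-83. ceh-20, the homolog of the homeodomain cofactor PBX, was the 1 missed of 4 ceh genes (interval 0.631 to 80.6%), at rank 3094 in replicate 1 and 1835 in replicate 2.

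Lists of markers of other tissues were counted beside the neuronal lists, since whole animals were used. Body wall muscle markers had 4 genes with a promoter peak and germline markers 2, all covered. No pharynx, intestine or hypodermis marker had an optimal peak at its promoter. None of 8 collagen genes with a peak was missed. The lists of tissue markers thus contributed no missed peak, though the number of their genes with a peak was small.

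**Figure D4:**
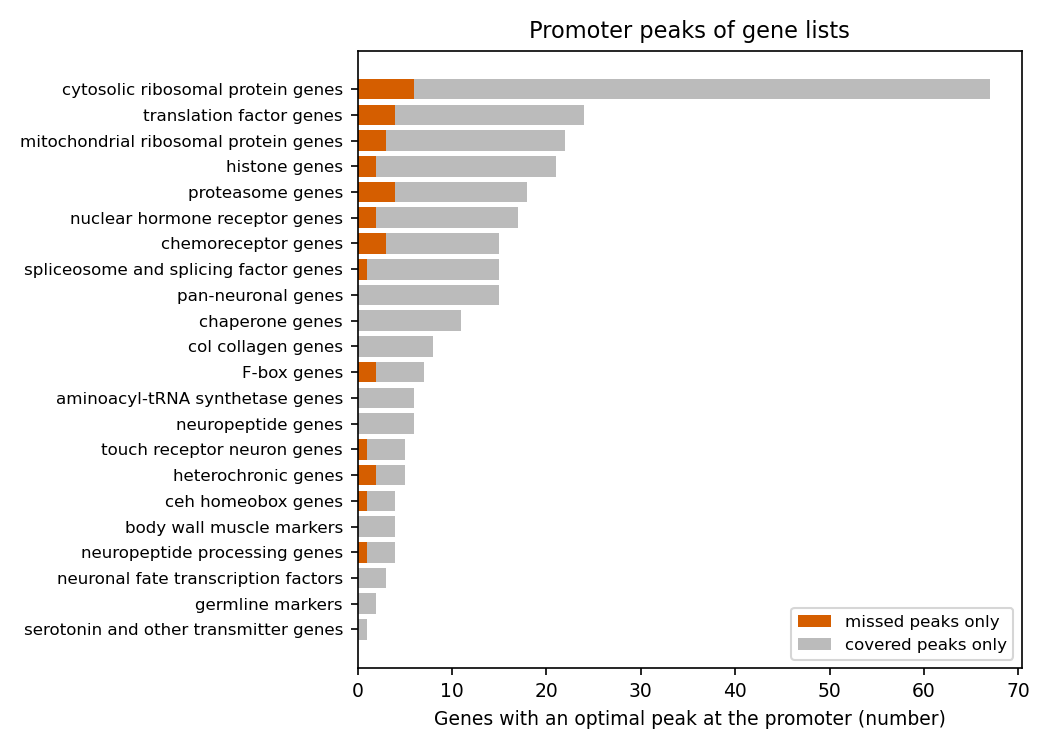
Number of genes (horizontal axis) with an optimal peak at the promoter in each list (vertical axis), split into genes with missed peaks only and genes with covered peaks only. The bar of cytosolic ribosomal protein genes holds 6 missed and 61 covered; 3 lists with no promoter peak are left out.

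**Figure D5:**
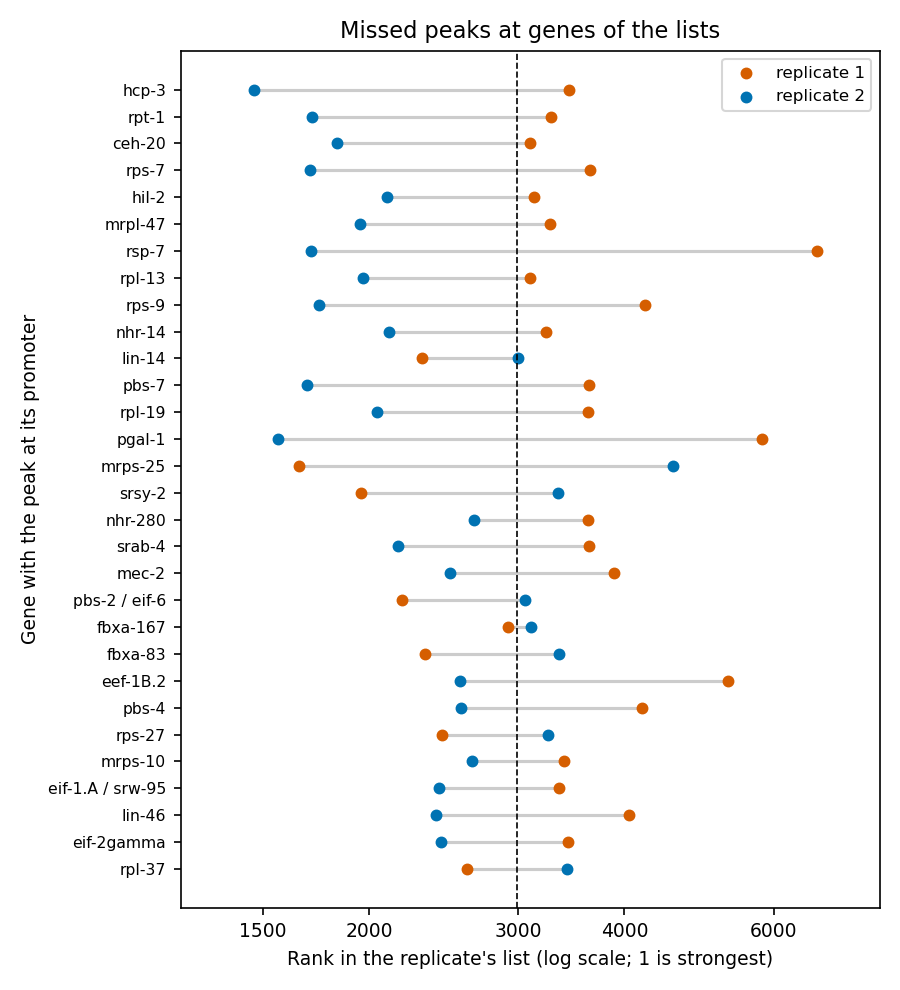
Rank of the overlapping peak in replicate 1 and in replicate 2 (horizontal axis, log scale) for the 30 missed peaks at promoters of listed genes (vertical axis, highest pooled signal at the top). The dashed line marks the limit. In most rows the point of replicate 1 lies to its right, and the widest spread is at rsp-7. Among all missed peaks, 273 were missed by replicate 1 only and 184 by replicate 2 only.

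Among all 473 missed peaks, 273 were missed by replicate 1 only, 184 by replicate 2 only and 16 by both. Among the 10 missed peaks of highest pooled signal, 8 were missed by replicate 1 and 2 by replicate 2. Pairs of ranks are given for replicate 1 and then for replicate 2. The first 3 had no protein-coding promoter under the summit. The peak at 502570 to 502965 on chromosome III had a pooled signal of 118 and lay at the snoRNA gene F30H5.4, with F30H5.3 the nearest protein-coding gene by 5′ end. Its signal was 24.98 at rank 3807 in replicate 1 and 93.9 at rank 1030 in replicate 2. The next, near Y54G2A.11, was intergenic (pooled signal 117, ranks 3353 and 1289), and the one near W03C9.1 lay at the snoRNA gene W03C9.9 (pooled signal 114.7, ranks 3236 and 1100).

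The others of the 10 included protein-coding promoters. A peak with a pooled signal of 111.6 lay between klp-19, a kinesin of chromosome segregation, and slc-36.1, an amino acid transporter. The peak nearest to nstp-6 lay inside osm-9, a TRPV channel gene of sensory neurons, at a tRNA gene, and ranked 2995 in replicate 1 and 1276 in replicate 2. tbb-2, a beta tubulin, had ranks of 3387 and 1494. The peaks at hcp-3, given above, and near W08G11.1, which was intergenic at a pooled signal of 107, complete those missed by replicate 1. gldr-2 (ranks 1241 in replicate 1 and 3064 in replicate 2) and an intron of npr-16 (ranks 1333 and 3155) were the 2 missed by replicate 2.

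The 16 peaks that both replicates missed lay at the foot of the optimal list, with pooled signals of 66.4 to 69.4. Their ranks ran from 2991 to 3564 in replicate 1 and from 3006 to 4508 in replicate 2. Promoters held 13 of the 16 (81.25%, 54.4 to 96.0), beside 72.3% of all missed and 81.4% of all covered peaks. Genes at these peaks included dyn-1, the dynamin of synaptic vesicle endocytosis, snx-1, a sorting nexin, pdk-1, a kinase of the insulin pathway, and an intron of vab-1, the Eph receptor. dyn-1 ranked 3370 in replicate 1 and 3075 in replicate 2, and vab-1 ranked 3311 and 3314. oga-1, the enzyme that removes O-GlcNAc, ranked 3005 and 3457.

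A further peak lay between prp-18, a splicing factor, and mccc-1, a carboxylase subunit (ranks 3034 and 3340). The peak at hmg-20, an HMG box gene, had the lowest rank in replicate 2, 4508, beside 3274 in replicate 1. The others were nearest to Y57G11C.33, tex-2, W05B5.1, npr-18, kin-14, npr-13, pqn-42, M04F3.4 and Y61A9LA.12. GAGAGA stood at 9 of the 16 summits (56.3%, 29.9 to 80.2) and AATGCAT at none (exact interval up to 20.6%). Over all missed and all covered peaks GAGAGA stood at 32.8% and 37.0%, and AATGCAT at 3.38% and 2.98%. The intervals of the 16 peaks hold these shares.

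The most uneven peaks were those with the largest ratio of the rank in the replicate that missed them to the rank in the other. For peaks missed by replicate 1 only, the largest gap was at a tRNA gene near C15C6.1, with a signal of 12.1 at rank 15931 in replicate 1 and 69.0 at rank 1534 in replicate 2. The next were aak-2, a catalytic subunit of the AMP-activated kinase (ranks 14453 and 1848), and the promoter shared by bcl-7 and dnc-2, a dynactin subunit (14017 and 1999). F38A1.8, soap-1 and the promoter of M117.3 and par-5, a 14-3-3 protein, followed with ranks of 8472, 11975 and 7601 in replicate 1. All 6 lay in promoter windows, as did 75.5% of all peaks missed by replicate 1 only.

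For peaks missed by replicate 2 only, the largest gap was at npr-18, with a signal of 55.4 at rank 1514 in replicate 1 and 14.97 at rank 10515 in replicate 2. npr-15 followed, in the intron peak whose sequence is shown above, at a signal of 56.8 and rank 1463 in replicate 1 and 21.7 and rank 5549 in replicate 2. ZK353.10, lron-3, pdfr-1, which encodes the receptor of the PDF neuropeptides, and mtm-6, a myotubularin-like gene, had ranks of 5372, 5641, 5460 and 4782 in replicate 2. The npr-18 and ZK353.10 peaks lay in promoter windows, those of npr-15, lron-3 and mtm-6 in introns, and that nearest to pdfr-1 in intergenic DNA. Promoter windows held 66.8% of all peaks missed by replicate 2 only, and these few peaks were picked as extremes.

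Because npr genes, a family of neuropeptide receptors, recurred in the sets above, all peaks nearest to one of the 43 npr genes were counted. The family was chosen after its values were seen, so the count supports nothing beyond itself. It was nearest to 8 missed peaks at 7 genes (1.69% of missed peaks) and to 14 covered peaks at 11 genes (0.557% of covered peaks). The latter share is over covered peaks of every signal, and none was computed within the weakest band. All 8 missed peaks were missed by replicate 2, and 2 of them, at npr-18 and npr-13, by replicate 1 as well. The other genes were npr-15, npr-16, npr-2, npr-26 and npr-28. Among all 473 missed peaks, replicate 2 missed 200 and replicate 1 missed 289. npr-18 had a pair of missed peaks 1000 bp apart and a covered one beside them. Ranks in replicate 1 ran from 1333 to 3564 and in replicate 2 from 3051 to 10515 over the 8 missed peaks. At npr-15, npr-16, npr-18 and npr-28 a covered peak stood near the same gene as well.

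The peaks missed by replicate 1 only and by replicate 2 only were set side by side, with 1 library behind each class. Median pooled signals were 75.1 and 72.3. Promoters held 75.5% of those missed by replicate 1 only (69.9 to 80.4) and 66.8% of those missed by replicate 2 only (59.5 to 73.6). Protein-coding promoters held 57.1% (51.04 to 63.1) and 47.3% (39.9 to 54.8), and the median distance to a protein-coding 5′ end was 923 bp and 1343 bp. Each pair of intervals overlaps, and the difference was not tested.

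Base composition and sequences were compared in the same way. Median G and C content was 43.7% at peaks missed by replicate 1 only and 42.4% at peaks missed by replicate 2 only. Outside promoters the medians were 44.4% over 67 peaks and 41.1% over 61 peaks, and within promoters 43.0% and 43.7%. GAGAGA stood at 31.9% and 32.1%. AATGCAT stood at 12 peaks missed by replicate 1 only (4.40%, 2.29 to 7.55) and at 4 missed by replicate 2 only (2.17%, 0.595 to 5.47). The part that base composition or the depth of a library has in which replicate missed a peak was not tested.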

How the data were processed

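The optimal list held 2987 peaks, so rank 2987 was the limit in each replicate. ChIP-seq peak lists of 2 biological replicates of tagged UNC-86 in L1 larvae were used, with the pooled and optimal lists made from both. Per the deposited file listing, each relaxed list came from an alignment and a control, and the optimal list from IDR; no source used here names the aligner, the peak caller or the IDR threshold. The deposited signal value, of unknown scale, ranked peaks within a list, and the deposited −log10 q value was used for description. Summits are the deposited offsets. Annotation was Ensembl release 115 on WBcel235, the assembly of ce11. Overlaps, summit classes, sequence matches in 151 bp windows and gene counts were computed with Python 3.11.15, numpy 2.4.6, pandas 2.3.3 and scipy 1.17.1, and checked on simulated peaks; figures used matplotlib 3.10.9. Intervals are exact (Clopper-Pearson) at 95%. With 1 group, no conditions were compared and no test was run.

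The members, the 25 gene lists, the 8 sequences and the alternatives were chosen with earlier results of these data known. Genes are named as the nearest by 5′ end (also the second between divergent 5′ ends) for the 10 missed peaks of highest pooled signal, those missed by both replicates, the 6 with the largest rank ratio in each one-sided class and the 3 on each side of each limit, and at most 4 per list by signal; rps-27 and rpl-37 and the npr family were added after their values were seen. Sequences shown are among those of highest signal with an element or with the most repeats, and by choice none is on chromosome I. Alternatives changed the overlap, list length, build, signal threshold, promoter window, sequence window and replicate.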

Additional observations from a re-analysis of the deposited data

How the results depend on the processing

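The number of missed peaks followed the limits set. It was 835 with 50% reciprocal overlap, 1222 with the 2000 strongest of each replicate, 185 with as many as the ce10 optimal list holds and 43 with the 5000 strongest, and 200 to 289 when 1 replicate alone was asked for. Above the median pooled signal there were 0 missed peaks, so no share of them could be computed there. With summits within 100 bp it was 563, and on ce10 it was 472 from lists of the same length and 656 from the whole, longer optimal list.

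The promoter share was 76.9% at missed peaks with 50% reciprocal overlap and 68.0% to 75.8% with 1 replicate alone. With a window of 1000 bp up and 250 bp down it was 64.3% at missed, 73.9% at covered and 63.6% at weakest-band covered peaks, and with protein-coding 5′ ends 53.9%, 67.1% and 53.9%. Covered peaks above the median signal had 84.7% and a median G and C content of 46.4%. In the lowest eighth of the signal, a setting chosen after seeing the data, promoters held 70.3% of missed and 76.5% of covered peaks, so that the order in the wider band turned.

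With 30 bp either side of the summit, GAGAGA stood at 14.2% of missed, 17.7% of covered and 15.6% of weakest-band covered peaks, AATGCAT at 1.48% of missed and 1.19% of covered peaks, and G and C content was 45.9%, 49.2% and 45.9%. With 150 bp either side, GAGAGA stood at 42.5%, 48.6% and 48.7%, AATGCAT at 5.92%, 6.09% and 5.52%, and G and C content was 39.9%, 41.2% and 40.2%. In the lowest eighth GAGAGA stood at 31.4% of missed and 29.6% of covered peaks and AATGCAT at 3.07% and 0 of 81.

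A summit within 1000 bp was found at 12.9% of missed, 9.90% of covered and 8.36% of weakest-band covered peaks with 50% reciprocal overlap, and at 14.7%, 9.82% and 6.13% with summits within 100 bp. In the lowest eighth it was found at 8.53% of missed and 24.7% of covered peaks, whose median neighbour distance was 6754 bp and 3518 bp. The order turned under both of the stricter overlap rules and not in the lowest eighth, and the cause of the turns was not tested. The other 62 of 107 recomputed values moved by less than their interval, or by under 1.5 times for a count.

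The limits are those of peak lists: depth is unknown, 1 library stands behind each replicate, and a rank limit splits peaks of nearly equal signal. No paired analysis was possible because there is 1 group.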
